A study of Mus musculus with 21 samples.

Results

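The genes described here encode the proteins of the mitochondrial ribosome. They were taken as every gene on the array whose symbol starts with Mrpl or Mrps and a digit, which gave 76 of 19505 genes, 48 Mrpl genes and 28 Mrps genes. Each of the 76 was read by a single transcript cluster, the set of probes that reports 1 gene. Symbols with Mrpl stand for the large subunit and symbols with Mrps for the small subunit, with known exceptions among the Mrps genes named where they are described, so counts and medians are given by symbol. The mitochondrial ribosome translates the few messages of mitochondrial DNA, which code for core subunits of the respiratory chain and ATP synthase. All of its proteins are encoded in the nucleus, made in the cytosol and imported, and only its ribosomal RNAs come from mitochondrial DNA. In T cells, activation is known to expand the mitochondrial proteome, and mitochondrial translation is known to be needed for full effector function.

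The study measured total RNA of mouse CD8+ T cells on single-colour Affymetrix arrays, with 21 arrays in 3 groups of 7 biological replicates. The AML group grew in supernatant of WEHI 3B cells, a mouse myelomonocytic leukaemia line standing for acute myeloid leukaemia (AML). The DC group grew in supernatant of bone marrow-derived dendritic cells (BMDCs), and the fresh group in fresh medium. The comparisons ask how soluble products of leukaemia cells or of dendritic cells act on T cells. In all groups the T cells came from wildtype mouse spleen, were activated with CD3/CD28 beads in complete RPMI with 2-ME, and were re-isolated as CD8+ cells by magnetic sorting after 48 h. The conditioned media were sterile-filtered supernatants of 48 h cultures and replaced the T cells' medium. The AML medium came from 1 cell line. The labels do not say whether samples of the same number shared a mouse or a day, so p-values measure only the spread between these samples. Levels are given on the log2 scale as deposited, differences are log2 differences of group means, and a gene was called changed at a Benjamini-Hochberg adjusted limma p below 0.05 over all 19505 genes.

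T cell and CD8 markers were high on all arrays. The mean level of 4 T cell markers lay at 10.73 to 10.95 on AML arrays, 10.68 to 10.97 on DC arrays and 10.71 to 10.89 on fresh arrays. The CD8 markers (2 genes) lay at 11.62 to 11.75, 11.65 to 11.80 and 11.60 to 11.78 in the same order. The mean of 8 myeloid markers was 3.65 to 3.93 on AML arrays, 3.71 to 3.96 on DC arrays and 3.70 to 3.94 on fresh arrays, and the mean of 5 dendritic cell markers 3.74 to 3.98, 3.63 to 4.07 and 3.66 to 3.90. CD4 markers (2 genes) reached 7.17 to 7.78 on AML arrays, 6.96 to 7.48 on DC arrays and 6.67 to 7.24 on fresh arrays, with 1 of them called in AML against fresh medium. The mean of 3 NK cell markers lay at 4.98 to 5.46 on AML arrays, 4.82 to 5.14 on DC arrays and 4.85 to 5.07 on fresh arrays, with 1 gene called in AML against fresh and 1 in AML against DC medium. The part of the CD4 and NK markers in the results was not tested. One free-text label names CXCL12-abundant reticular cells, whose 3 markers averaged 4.05 to 4.40 on AML arrays, 3.96 to 4.22 on DC arrays and 3.82 to 4.31 on fresh arrays.

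The promoters of the members that the comparisons turn on are shown so that their start regions can be read beside their levels. They are RefSeq windows on build GRCm38.p6, from 250 bases before to 50 bases after the annotated gene start, in the gene's direction. Capitals mark matches on either strand to 4 motifs: CACGTG (E-box, bound by MYC and MAX), CCGGAAG (ETS family, which includes GABPA), GCATGCG (NRF1) and ATGGCGG (YY1). Mrpl39 (chr16:84735195-84735494, minus strand), Mrpl45 (chr11:97315466-97315765, plus strand), Mrpl23 (chr7:142532782-142533081, plus strand), Mrpl52 (chr14:54426659-54426958, plus strand), Mrps33 (chr6:39810887-39811186, minus strand) and Mrps18b (chr17:35916391-35916690, minus strand) read as follows.
Mrpl39: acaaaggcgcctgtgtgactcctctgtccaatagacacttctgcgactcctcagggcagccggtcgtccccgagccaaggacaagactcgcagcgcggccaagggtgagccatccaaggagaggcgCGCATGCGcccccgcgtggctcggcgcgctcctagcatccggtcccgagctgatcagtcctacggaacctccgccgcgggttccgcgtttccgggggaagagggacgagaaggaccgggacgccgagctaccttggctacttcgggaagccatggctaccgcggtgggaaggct
Mrpl45: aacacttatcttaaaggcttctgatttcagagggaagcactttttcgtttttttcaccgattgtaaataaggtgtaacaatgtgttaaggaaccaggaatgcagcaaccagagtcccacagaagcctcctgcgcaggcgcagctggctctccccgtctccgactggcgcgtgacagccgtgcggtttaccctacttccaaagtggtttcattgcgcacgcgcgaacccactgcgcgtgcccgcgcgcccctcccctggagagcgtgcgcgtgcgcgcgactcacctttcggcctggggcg
Mrpl23: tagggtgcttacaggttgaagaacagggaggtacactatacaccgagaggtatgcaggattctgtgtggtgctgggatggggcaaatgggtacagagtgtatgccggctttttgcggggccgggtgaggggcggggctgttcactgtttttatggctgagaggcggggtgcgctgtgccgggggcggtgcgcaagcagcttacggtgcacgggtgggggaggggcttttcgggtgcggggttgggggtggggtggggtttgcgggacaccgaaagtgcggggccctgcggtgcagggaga
Mrpl52: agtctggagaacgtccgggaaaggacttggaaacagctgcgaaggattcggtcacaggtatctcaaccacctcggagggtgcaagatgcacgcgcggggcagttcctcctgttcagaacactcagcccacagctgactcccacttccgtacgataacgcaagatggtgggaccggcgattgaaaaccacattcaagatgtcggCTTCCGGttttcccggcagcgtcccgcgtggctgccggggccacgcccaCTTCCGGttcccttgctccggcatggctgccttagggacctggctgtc
Mrps33: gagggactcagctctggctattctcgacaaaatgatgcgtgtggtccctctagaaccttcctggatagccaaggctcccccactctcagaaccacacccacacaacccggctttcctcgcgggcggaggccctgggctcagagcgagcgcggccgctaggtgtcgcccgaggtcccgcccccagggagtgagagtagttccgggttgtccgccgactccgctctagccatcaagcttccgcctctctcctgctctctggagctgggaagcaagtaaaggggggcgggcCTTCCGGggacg
Mrps18b: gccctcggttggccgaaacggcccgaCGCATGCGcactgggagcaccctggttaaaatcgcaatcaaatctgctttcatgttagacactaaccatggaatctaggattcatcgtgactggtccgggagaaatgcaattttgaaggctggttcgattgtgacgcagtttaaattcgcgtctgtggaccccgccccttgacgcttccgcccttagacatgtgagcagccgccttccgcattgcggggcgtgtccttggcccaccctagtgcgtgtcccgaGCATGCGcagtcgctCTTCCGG

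A promoter window was found for 67 of the 76 members, and 38 of these 67 held at least 1 of the 4 motifs. The ETS motif was in 24 member windows (35.8%), against 9.12% of all 27025 mouse promoter windows and 12.2% of the 15691 windows of genes on the array. The YY1 motif was in 12 (17.9%, against 4.19% and 5.58%) and the NRF1 motif in 8 (11.9%, against 3.64% and 4.65%). The E-box was in 5 (7.46%), between the 7.24% of all windows and the 8.18% of those on the array. The ETS motif was in 31.0% of Mrpl and 44.0% of Mrps windows, and the NRF1 motif in 16.7% and 4.00%. Member windows were richer in G and C than all windows, with medians of 58.0% and 52.7%, and the part of base composition in these shares was not tested. Of the promoters printed above, Mrpl39 and Mrps18b held the NRF1 letters, Mrpl52, Mrps33 and Mrps18b the ETS letters, and Mrpl45 and Mrpl23 none of the 4.

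In T cells grown in AML medium, the mitochondrial ribosomal protein genes stayed close to their fresh-medium levels as a group, and 1 of 76, Mrpl39, was called lower while none was called higher. Over all genes, 1.48% were called lower and 1.30% higher in this comparison, 2.77% in all, so the count of members lies near the background. The median log2 difference, AML minus fresh, was -0.03 over the 48 Mrpl genes and -0.05 over the 28 Mrps genes, against -0.01 over all genes. With each array left out in turn, the Mrpl median ran between -0.058 (without fresh replicate 3) and -0.00020 (without fresh replicate 7), and the Mrps median between -0.071 and -0.027. Within replicates 1 to 3 alone the medians were 0.027 and -0.021, and within replicates 4 to 7 alone -0.083 and -0.10. The difference lay below 0 for 48 members (63.2%), against 54.4% of all genes, and single members ran between -0.32 and 0.28. At an unadjusted p below 0.05, limma counted 12 members (15.8%), 10 lower and 2 higher, against 15.9% of all genes (8.78% lower, 7.11% higher). No member had AML arrays that all lay above or all below the fresh arrays, a pattern found in 0.354% and 0.441% of all genes. The 95% interval of the difference lay within a 1.5-fold change either way for 75 members (94.8% of all genes), Mrpl47 being the exception. In these bulk samples, fewer cells of a type and less RNA per cell cannot be told apart.

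Mrpl39, a mitochondria-specific protein of the large subunit, ran at 6.90, 6.97 and 7.21 (lowest, median, highest) on AML arrays, 7.09, 7.12 and 7.34 on DC arrays and 7.16, 7.23 and 7.38 on fresh arrays. AML arrays were low, and AML replicate 6, at 7.21, was the array that reached into the fresh range. The mean was 7.01 ± 0.11 in AML medium and 7.24 ± 0.08 in fresh medium (SD), a difference of -0.23 (SE 0.06, adjusted p = 0.0470), or 1.17-fold lower. Against DC medium, at 7.16 ± 0.09, the difference was -0.15 (adjusted p = 0.256). The call was lost when any 1 of 18 of the 21 arrays was left out (adjusted p = 0.0522 to 0.120) and without AML replicates 4 and 5 (adjusted p = 0.260, difference -0.19). Among the 32 alternative settings, 8 kept the call, and the difference ran between -0.26 and -0.19.

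The lowest and the highest AML minus fresh difference were those of Mrpl45 and Mrpl23. Mrpl45, which holds the ribosome to the inner membrane, ran at 9.18, 9.53 and 9.83 on AML arrays, 9.64, 9.89 and 9.97 on DC arrays and 9.63, 9.84 and 9.96 on fresh arrays. AML arrays were spread downward while overlapping both other groups, with differences of -0.32 from fresh (SE 0.09, adjusted p = 0.0619) and -0.30 from DC medium (SE 0.09, adjusted p = 0.0926). Neither passed, although the difference from fresh did under 7 of the 32 alternatives and that from DC medium under 4. Mrpl23, whose bacterial counterpart lines the exit tunnel, ran at 8.26, 8.49 and 9.04 on AML arrays, 7.99, 8.36 and 8.56 on DC arrays and 8.04, 8.32 and 8.44 on fresh arrays. Its AML median lay above both others, with overlap, and the differences were 0.28 from fresh (SE 0.11, adjusted p = 0.178) and 0.29 from DC medium (SE 0.11, adjusted p = 0.192). With AML replicates 4 and 5 left out, the AML minus fresh difference of Mrpl23 was 0.13 and that of Mrpl45 was -0.21 (adjusted p = 0.390).

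Among large-subunit proteins with bacterial counterparts, Mrpl27 ran at 8.31, 8.99 and 9.11 on AML arrays, 9.05, 9.10 and 9.16 on DC arrays and 8.94, 9.11 and 9.23 on fresh arrays. The AML median lay below the lowest DC array and inside the fresh range, and the low end was set by AML replicates 4 and 5. Its difference of -0.29 from fresh (SE 0.11, adjusted p = 0.156) was -0.09 without them. From DC medium the difference was -0.31 (SE 0.11, adjusted p = 0.141), and -0.11 without those 2 arrays. Mrpl17 ran at 7.87, 8.0 and 8.77 on AML arrays, 7.89, 8.04 and 8.15 on DC arrays and 7.91, 8.06 and 8.09 on fresh arrays. Its AML minus fresh difference was 0.16 with all arrays and -0.05 when AML replicates 4 and 5 were left out, so those arrays set its sign. Mrpl3, next to the catalytic centre in bacteria, ran at 6.87, 7.20 and 7.39 on AML arrays, 6.88, 7.20 and 7.34 on DC arrays and 6.54, 6.98 and 7.10 on fresh arrays. Both conditioned media lay above fresh in the median, with overlap. The differences were 0.20 for AML (SE 0.11, adjusted p = 0.373) and 0.19 for DC (adjusted p = 0.820). They include fresh replicate 1 at 6.54, the lowest fresh array, with the next at 6.77.

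The stalk, which recruits translation factors, is built on Mrpl11 and carries Mrpl12, a protein also known to bind the mitochondrial RNA polymerase. Mrpl12 ran at 8.05, 8.22 and 8.53 on AML arrays, 7.77, 8.35 and 8.52 on DC arrays and 7.77, 8.10 and 8.33 on fresh arrays. The groups overlapped and the AML minus fresh difference of 0.13 did not pass (SE 0.12, adjusted p = 0.669), nor did that of Mrpl11, -0.04. Mrpl52, a mitochondria-specific large-subunit protein, ran at 7.14, 7.66 and 7.86 on AML arrays, 7.10, 7.19 and 7.48 on DC arrays and 7.13, 7.23 and 7.42 on fresh arrays. Its AML median lay above the highest array of either other group, but the lowest AML array lay inside both ranges, and the differences were 0.26 from fresh (SE 0.10, adjusted p = 0.193) and 0.30 from DC medium (SE 0.10, adjusted p = 0.122). Mrpl55 differed by 0.18 from fresh and by 0.26 from DC medium (SE 0.12, adjusted p = 0.297). With AML replicates 4 and 5 left out, these differences were 0.15 and 0.19 for Mrpl52 and 0.058 and 0.14 for Mrpl55. Mrpl41 differed from fresh by 0.15 (SE 0.07, adjusted p = 0.318) and Mrpl44, an RNase III-like protein, by -0.13 (SE 0.07, adjusted p = 0.360), which was -0.039 with those arrays left out.

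None of the 28 Mrps genes was called in any comparison. At an unadjusted p below 0.05 limma counted 4 lower and 0 higher in AML against fresh medium, 14.3% in all. Over all genes the share was 15.9%, with 8.78% lower and 7.11% higher. Mrps33, a mitochondria-specific small-subunit protein, ran at 8.45, 8.70 and 8.83 on AML arrays, 8.79, 8.92 and 9.23 on DC arrays and 8.45, 8.86 and 9.09 on fresh arrays. AML arrays were low against DC arrays with a narrow overlap, by -0.33 (SE 0.09, adjusted p = 0.0609), and against fresh by -0.22 (SE 0.09, adjusted p = 0.224). The Mrps33 difference from DC medium passed under 9 of the 32 alternatives. With AML replicates 4 and 5 left out, it was -0.25 (adjusted p = 0.373), and the difference of Mrps33 from fresh was -0.15 (adjusted p = 0.639). Mrps30 carries a small-subunit symbol although its protein sits in the large subunit. It ran at 7.55, 7.61 and 7.98 on AML arrays, 7.73, 7.97 and 8.23 on DC arrays and 7.55, 7.99 and 8.10 on fresh arrays. The AML median lay below both others, with overlap, by -0.24 in the means against fresh (SE 0.09, adjusted p = 0.181) and -0.30 against DC medium (SE 0.09, adjusted p = 0.0906). The difference from DC medium passed under 5 of the 32 alternatives.

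Mrps12, a protein of the decoding region, differed from fresh by -0.11 in AML medium (-0.045 without fresh replicate 1), and Mrps15 by -0.19 (SE 0.09, adjusted p = 0.339; -0.11 with AML replicates 4 and 5 left out). The paralogs Mrps18a, Mrps18b and Mrps18c take different places on the ribosome, Mrps18a in the large subunit. Mrps18b ran at 8.08, 8.28 and 8.82 on AML arrays, 7.73, 8.43 and 8.63 on DC arrays and 7.68, 8.11 and 8.54 on fresh arrays. The groups overlapped, and the AML minus fresh differences were 0.20 for Mrps18b (SE 0.16, adjusted p = 0.610), 0.02 for Mrps18a and -0.15 for Mrps18c. With AML replicates 4 and 5 left out, that of Mrps18b was 0.047, and without fresh replicate 5 that of Mrps18c was -0.085. Mrps27, an RNA-binding pentatricopeptide repeat protein, differed by -0.06, Mrps22 by 0.01 and Mrps34 by 0.04. Mrps36, whose protein belongs to the 2-oxoglutarate dehydrogenase complex despite its symbol, differed by -0.02.

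**Figure D1:**
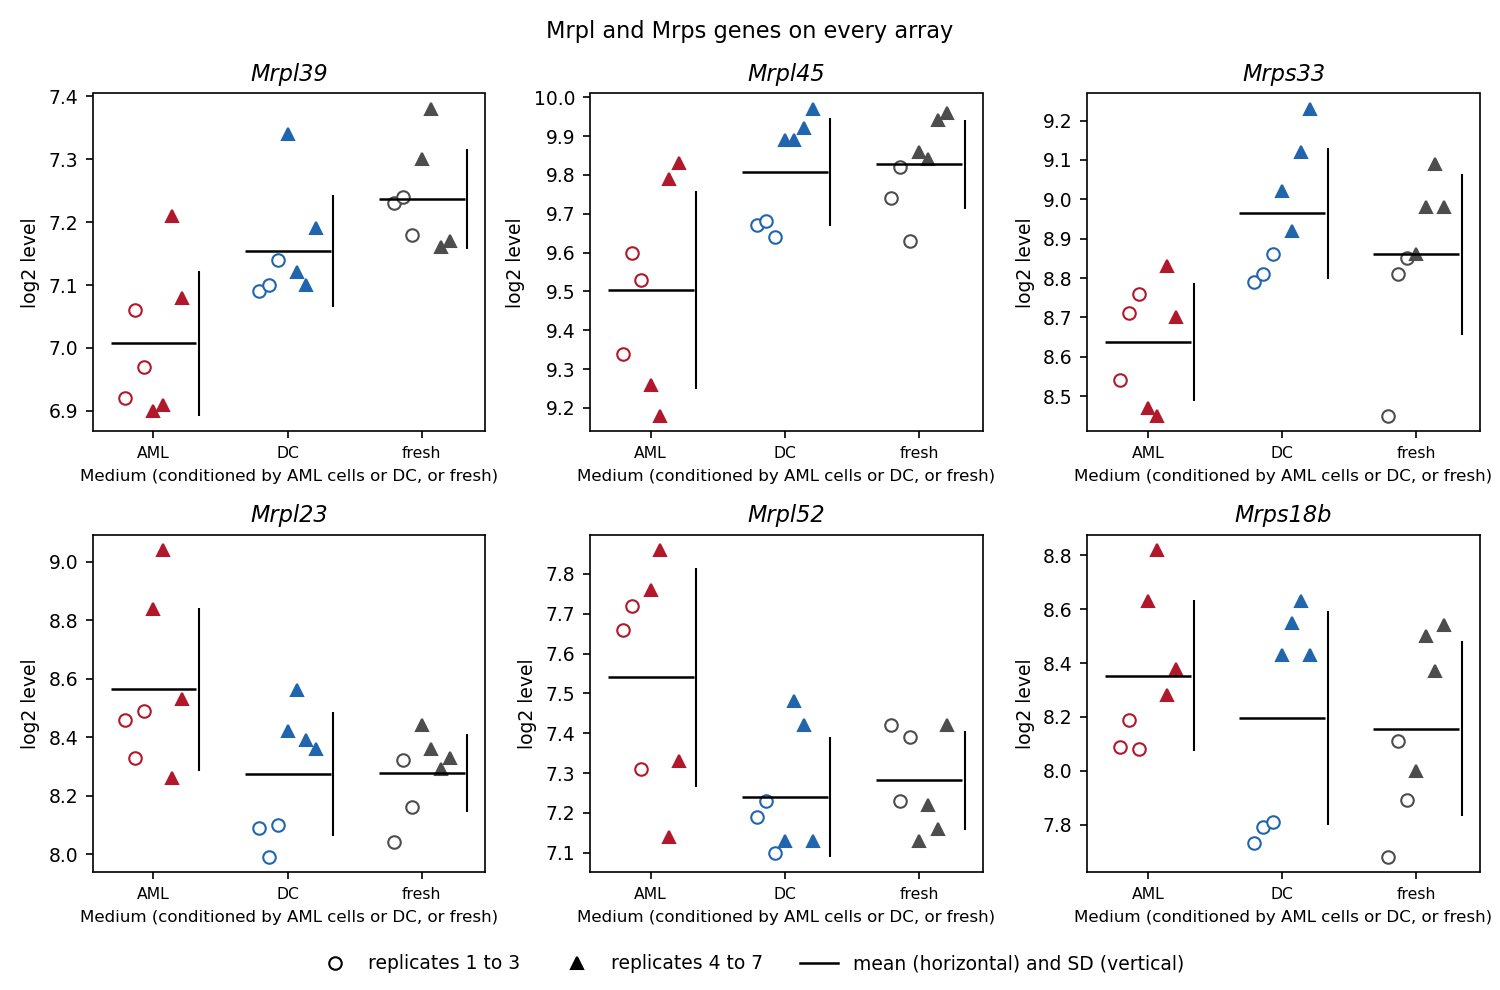
Log2 level on each of 7 arrays per medium for the members named in the panels, with AML medium left, DC medium in the middle and fresh medium right; open circles are replicates 1 to 3 and filled triangles replicates 4 to 7, with mean and SD drawn beside them. The Mrpl39 panel shows AML arrays low with 1 array, at 7.21, inside the fresh range.

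In DC medium no member passed the test, and limma called 0% of all 19505 genes in either direction against fresh medium. At an unadjusted p below 0.05 it counted 0 members, against 6.41% of all genes (4.29% lower, 2.13% higher). No member's DC arrays all lay above or all below the fresh arrays (0.0359% and 0.0769% of all genes). The median difference, DC minus fresh, was 0.02 for the Mrpl and 0.01 for the Mrps genes, against -0.01 for all genes, and 35 members lay below 0 (54.8% of all genes). With each array left out in turn, the Mrpl median ran between 0.0041 (without fresh replicate 1) and 0.047 (without DC replicate 3). The Mrps median ran between -0.017 (without fresh replicate 1) and 0.022 (without DC replicate 2), so its sign turned. Within replicates 1 to 3 these medians were -0.053 and -0.066, and within replicates 4 to 7 they were 0.054 and 0.051. Single members ran between -0.17, at Mrpl34 (SE 0.10, adjusted p = 0.833), and 0.26, at Mrpl47 (SE 0.20, adjusted p = 0.891). Each end turned on 1 array, with Mrpl34 at -0.091 without DC replicate 3 and Mrpl47 at 0.068 without fresh replicate 1. The interval of the difference lay within 1.5-fold for 75 members (98.5% of all genes). Mrpl47, a counterpart of a bacterial large-subunit protein, was the exception and ran at 5.81, 6.28 and 6.75 on AML arrays, 6.22, 6.76 and 7.18 on DC arrays and 5.26, 6.54 and 6.93 on fresh arrays. It spread over more than 1 log2 unit in fresh medium, and its intervals were -0.16 to 0.68 for DC minus fresh and -0.59 to 0.25 for AML minus fresh. The other members at the ends of this comparison were Mrps16 (-0.16), Mrpl54 (-0.15) and Mrpl38 (-0.12) on the low side and Mrpl3 (0.19), Mrpl51 (0.19, and 0.11 without fresh replicate 1) and Mrps24 (0.17) on the high side.

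Set against DC medium, AML medium gave 0 called members by limma, against 1.13% of all genes called higher and 1.26% lower, 2.39% in all. At an unadjusted p below 0.05 there were 14 members (18.4%), 11 lower and 3 higher, against 14.3% of all genes (7.44% lower, 6.82% higher). Again no member's groups lay apart, as those of 0.436% (AML higher) and 0.379% (AML lower) of all genes did. The median difference, AML minus DC, was -0.04 for the Mrpl and -0.08 for the Mrps genes, against 0.01 for all genes. Within replicates 1 to 3 it was 0.046 and 0.0036, and within replicates 4 to 7 it was -0.13 and -0.11, so the direction turned between these divisions. With each array left out in turn, the Mrpl median ran between -0.059 and -0.015 (without DC replicate 7) and the Mrps median between -0.091 and -0.042 (without AML replicate 1). Over all arrays 46 of the 76 members (60.5%) lay below 0, against 48.1% of all genes. The interval lay within 1.5-fold for 75 members (95.2% of all genes). The lowest was Mrpl47 at -0.43 (SE 0.20, adjusted p = 0.330), and the highest Mrpl52 at 0.30. All 3 comparisons draw on the same 3 groups, so the AML arrays enter this result and the one against fresh medium alike.

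**Figure D2:**
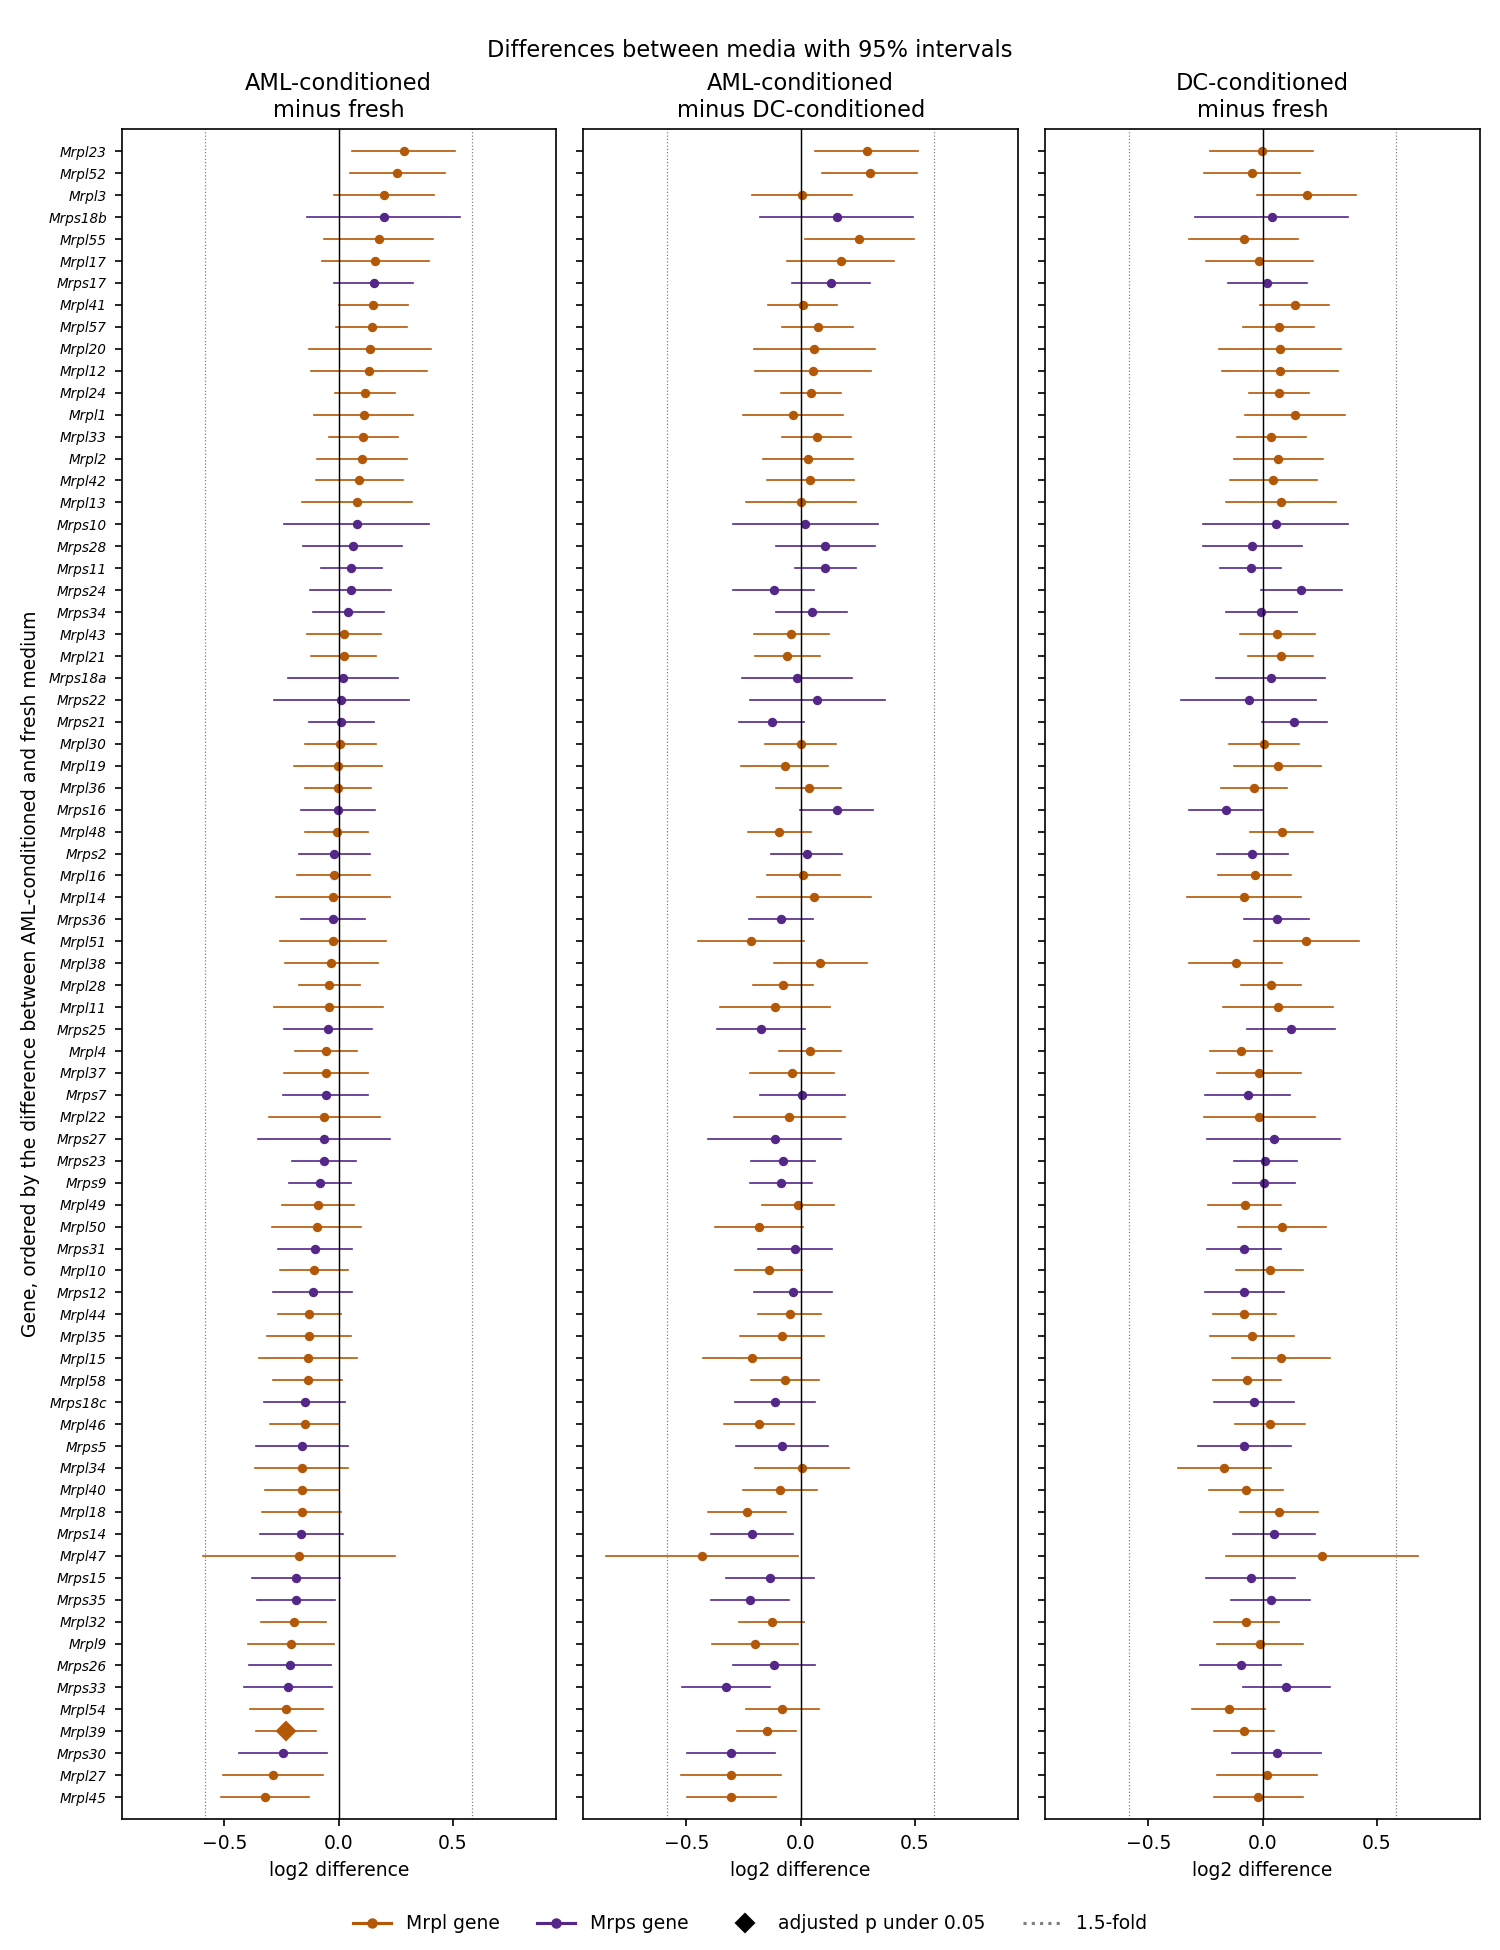
Log2 difference of each of the 76 members in the 3 comparisons (AML minus fresh left, AML minus DC in the middle, DC minus fresh right), Mrpl and Mrps genes in different colours, with bars for the 95% interval from limma and dotted lines at a 1.5-fold change. The points crowd around 0, and Mrpl39 in AML minus fresh, at -0.23, is the called member and is drawn as a diamond.

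Averaged over the Mrpl or the Mrps genes, the ranges of the 3 media overlapped. Relative to the fresh mean, the Mrpl mean lay at -0.08 to 0.02 on AML arrays, -0.13 to 0.14 on DC arrays and -0.12 to 0.11 on fresh arrays. The Mrps mean lay at -0.16 to 0.01 on AML arrays, -0.16 to 0.16 on DC arrays and -0.12 to 0.12 on fresh arrays. The AML range lay inside the DC range for the Mrpl genes and shared its low end for the Mrps genes. The arrays of DC medium separated by replicate number, with replicates 4 to 7 at 0.08 to 0.14 and replicates 1 to 3 at -0.13 to -0.10 for the Mrpl genes. For the Mrps genes, replicates 4 to 7 lay at 0.08 to 0.16 and replicates 1 to 3 at -0.16 to -0.12. On fresh arrays, replicates 4 to 7 lay at 0.02 to 0.11 and replicates 1 to 3 at -0.12 to -0.01 for the Mrpl genes. On AML arrays the ranges overlapped, at -0.06 to 0.01 in replicates 4 to 7 and -0.08 to 0.02 in replicates 1 to 3. Within replicates 4 to 7, AML arrays lay below DC arrays without overlap, at -0.06 to 0.01 against 0.08 to 0.14 for the Mrpl genes and -0.05 to 0.01 against 0.08 to 0.16 for the Mrps genes. This was seen after the division was chosen and was not tested.

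**Figure D3:**
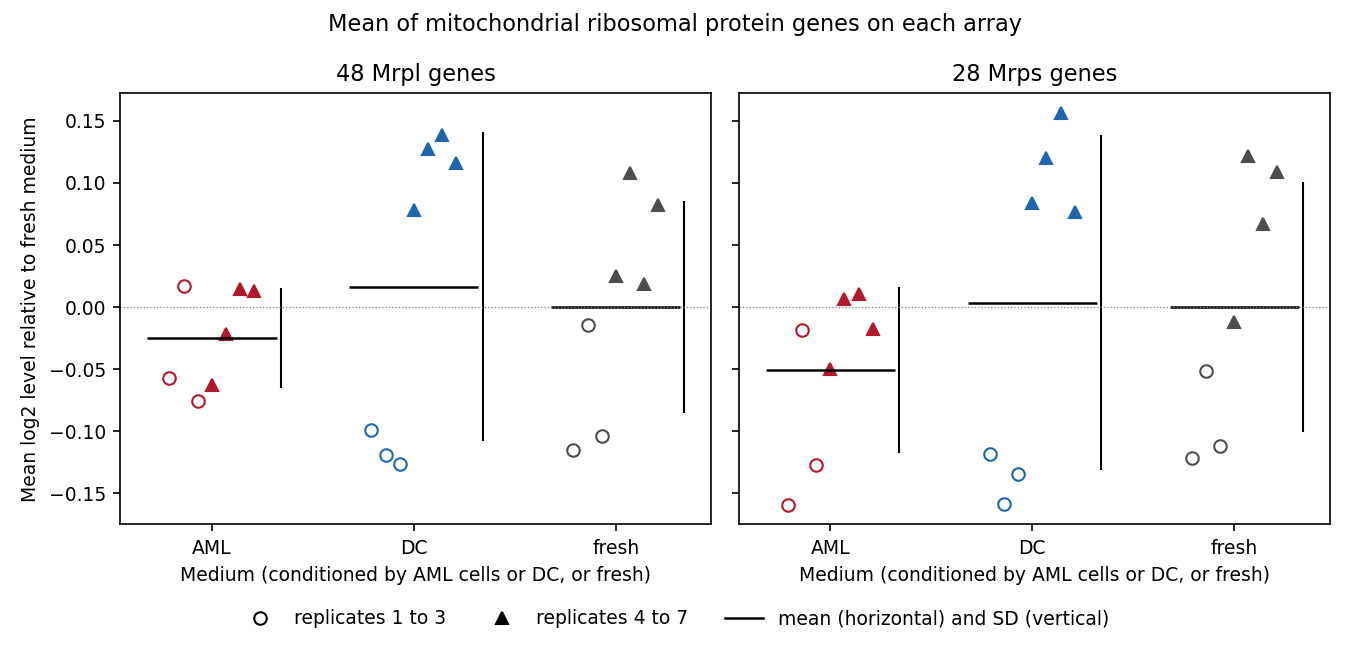
Mean log2 level of the 48 Mrpl and 28 Mrps genes on each array, relative to the mean of the fresh arrays, by medium; open circles are replicates 1 to 3, filled triangles replicates 4 to 7, and lines the mean and SD. In DC medium replicates 4 to 7 sit above 0 and replicates 1 to 3 below it.

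Gene by gene, replicates 4 to 7 lay above replicates 1 to 3 in the mean for 50 members in AML medium, 70 in DC medium and 58 in fresh medium. The split was complete, with every array of replicates 4 to 7 above every array of replicates 1 to 3, for 8 members in AML medium (10.5%, against 4.64% of all genes), 35 in DC medium (46.1%, against 13.6%) and 18 in fresh medium (23.7%, against 7.74%). Mrpl12 in DC medium read 8.46, 8.52, 8.51 and 8.35 in replicates 4 to 7 and 7.91, 7.77 and 7.80 in replicates 1 to 3. Mrps10, a protein of the small-subunit head, read 7.93, 8.06, 7.97 and 7.92 in replicates 4 to 7 of DC medium and 7.21, 7.36 and 7.38 in replicates 1 to 3. These values stand apart by number within a single medium. Mrps10 was picked as an example after its values were seen. The opposite complete order was seen for 4 members in AML medium (6.01% of all genes), 1 in DC medium, Mrpl9 (11.2%), and 2 in fresh medium (7.49%).

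The median member difference, replicates 4 to 7 minus replicates 1 to 3, was 0.06 in AML medium, 0.21 in DC medium and 0.14 in fresh medium, against 0.00, -0.02 and -0.02 over all genes. The sign of these member medians held after median centring and after further quantile normalization. The labels do not call the numbers a batch, and this division was chosen after seeing the data. Within replicates 1 to 3 the member medians were -0.01 for AML minus fresh, -0.06 for DC minus fresh and 0.03 for AML minus DC. Within replicates 4 to 7 they were -0.09, 0.05 and -0.13. In AML minus DC there, 82.9% of members lay below 0, against 47.6% of all genes, whose median was 0.0090. No member was called in any of these fits, where limma called, of all genes within replicates 1 to 3, 1.92% in AML against fresh, 1.63% in AML against DC and 0% in DC against fresh medium. Within replicates 4 to 7 it called 0.164%, 0.22% and 0% of all genes in these comparisons. The difference between the divisions was not tested.

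The members differed among themselves on single arrays. The SD over the 76 members of the level relative to the fresh mean was 0.133 to 0.320 on AML arrays, 0.137 to 0.174 on DC arrays and 0.107 to 0.266 on fresh arrays, whose own values enter that mean. AML replicates 5 and 4 had 0.320 and 0.265, and the SD over all genes on these arrays was 0.359 and 0.333. In fresh medium, replicate 1 stood highest at 0.266. On AML replicate 5, Mrpl23 lay 0.76, Mrpl17 0.74, Mrps18b 0.67 and Mrpl52 0.58 above the fresh mean, and Mrpl27, Mrpl45 and Mrpl9 lay at -0.78, -0.64 and -0.55. On AML replicate 4, Mrpl17, Mrpl23 and Mrpl55 lay 0.64, 0.57 and 0.54 above it, and Mrpl27 and Mrpl45 at -0.77 and -0.56. These arrays thus hold high and low members at once. On fresh replicate 1 the distant members were all low, with Mrpl47 at -1.14, Mrpl20 at -0.72, Mrps22 at -0.65, Mrpl13 at -0.60 and Mrpl1 at -0.53.

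**Figure D4:**
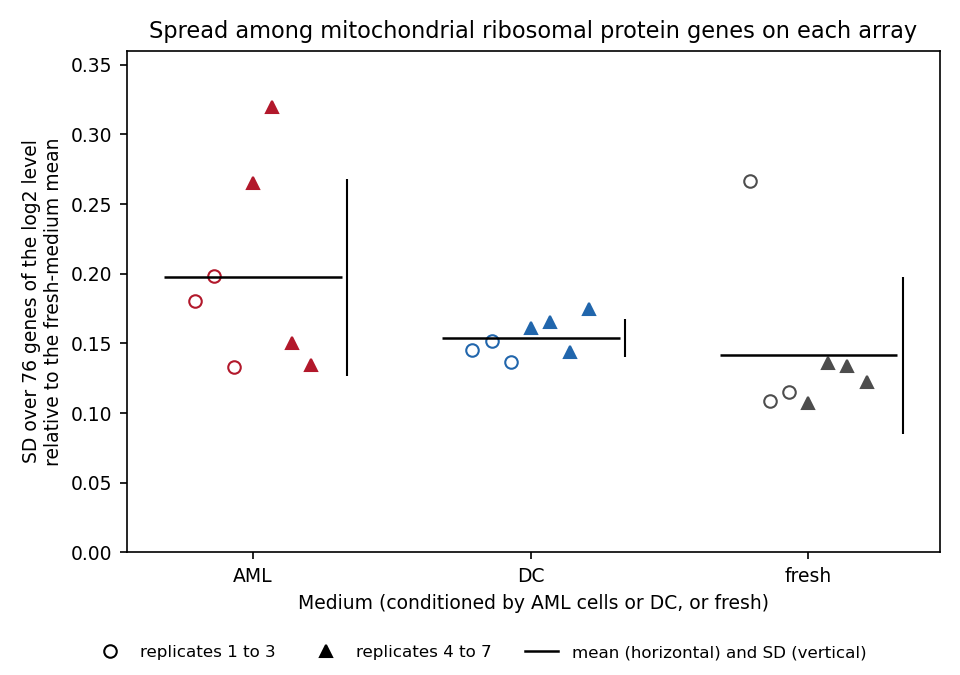
SD over the 76 members of their log2 level relative to the fresh mean, 1 point per array, by medium; open circles are replicates 1 to 3, filled triangles replicates 4 to 7, and lines the mean and SD over arrays. AML replicates 5 and 4, at 0.320 and 0.265, and fresh replicate 1, at 0.266, stand above the rest.

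The members also tended to move together from array to array. Over all 2850 pairs of members, the correlation of the deviations from each medium's mean over the 21 arrays had a median of 0.265, with quartiles of 0.015 and 0.486, and 76.1% of pairs lay above 0. Over all pairs of genes the median correlation was 0. Among the members, it differed little by subunit. The median was 0.248 among Mrpl pairs, 0.331 among Mrps pairs and 0.266 between an Mrpl and an Mrps gene. The points share their arrays and the division by replicate number, so this is a description. The within-medium SD was 0.164 for the median member and 0.178 for the median gene.

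The other genes of the mitochondrial translation pathway gave 1 called gene, in both comparisons of AML medium. Of 4 measured mitochondrial ribosome proteins with other symbols, none passed, and Dap3, a GTP-binding small-subunit protein, differed by -0.21 in AML minus fresh (SE 0.08, adjusted p = 0.155). Of 26 assembly and ribosomal RNA modification factors, 1 rose in AML medium, Nsun4, a methyltransferase of mitochondrial ribosomal RNA. Nsun4 differed by 0.33 from fresh (SE 0.08, adjusted p = 0.0332) and by 0.31 from DC medium (adjusted p = 0.0435), and the list's medians were 0.01 and 0.03. Its AML arrays overlapped those of both other media. Over all genes, 1.30% were called higher against fresh and 1.13% against DC medium, so a single call in a list of this size says little about the list. None of 19 translation factors and none of 19 mitochondrial transcription and DNA genes passed in any comparison, and neither did any of 13 import genes, whose median was -0.01 in AML minus fresh. In AML minus DC the median was -0.12 for the translation factors and -0.10 for the import genes. None of 15 regulators passed either, Myc lying at 0.40 in AML minus fresh (SE 0.11, adjusted p = 0.0573).

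Lists for the cytosolic ribosome and the respiratory chain, the parallel machine and the destination of the products, gave medians of opposite sign in AML medium. The cytosolic list left out symbols made of Rpl and a single digit alone, so its 48 genes cover only a part of that ribosome. Of these 48 cytosolic ribosomal protein genes, Rps4x rose against fresh medium by 0.30 (SE 0.07, adjusted p = 0.0219). At an unadjusted p below 0.05, 15 of them were higher and 0 lower (7.11% and 8.78% of all genes), and their median was 0.09. Of 84 nuclear-encoded oxidative phosphorylation subunits, 1 rose against fresh medium, Cox6b2 (0.64, adjusted p = 0.0487), where 1.30% of all genes were called higher. At an unadjusted p below 0.05, 2 were higher and 11 lower (15.5%, against 15.9% of all genes). Of these subunits 72.6% lay below 0, against 54.4% of all genes, with a median of -0.06. Against DC medium, Cox6a2 (0.85, adjusted p = 0.0247) and Cox6b2 (0.78, adjusted p = 0.0180), both cytochrome c oxidase subunits, rose. Sdhd of complex II (-0.37, adjusted p = 0.0247) and Uqcrfs1 of complex III (-0.23, adjusted p = 0.0400) fell. Over all genes, 1.13% were called higher and 1.26% lower against DC medium. At an unadjusted p below 0.05, 3 subunits were higher and 18 lower there (25%, against 14.3% of all genes). Of the subunits 82.1% lay below 0 against DC medium, where 48.1% of all genes did. In AML minus fresh, the median over the mitochondrial ribosomal protein genes was -0.04.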

How the data were processed

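The authors deposited 1 table of log2 values for 21 arrays (single-colour Affymetrix, labelled with the WT Pico kit per the labels' protocols), made with RMA in the oligo package per the submitters' processing notes. Versions and the build behind the table are not given in the sources used here. Probe-level intensities were not used, so signal over background is unknown. The number of arrays limits precision.

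Of 22203 transcript clusters, 19572 had 1 gene symbol and 2631 none. The cluster with the highest mean was kept per symbol, leaving 19505 genes. All 76 member symbols had a single cluster. Gene IDs were matched to a RefSeq table (GRCm38.p6). limma 3.58.1 in R 4.3.3 (lmFit, eBayes) was fitted to all genes and all 3 groups without a block, with Benjamini-Hochberg adjustment at 0.05, and tested on simulated data.

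Members and lists were chosen with earlier results of these data known. Named members are called members, the 4 highest and 4 lowest differences per comparison, members at the ends of the level range, and a fixed list of 15. Those chosen by level alone entered the search for outlying arrays and are described only where flagged there. In the related lists every called gene is named. Members far from the fresh mean on an array are those over 0.5 away, and were named after their values were seen. Alternatives covered scaling, filtering, the variance model, replicate blocks and left-out arrays. Divisions by replicate number were added after seeing the data.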

Additional observations from a re-analysis of the deposited data

Results flagged for a closer look

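Of 117 sets of 7 arrays examined (37 named members and 2 subunit means in 3 media), 5 held an array whose gap to its nearest neighbour was a large part of the whole range, above Dixon's 95% critical value. Chance gives about 1 in 20. Mrpl14 in DC medium had replicate 2 at 5.54, against 6.05 to 6.37 in the others, a ratio of gap to range of 0.621. Mrpl34 in DC medium had replicate 3 at 7.04, against 7.43 to 7.67, with a ratio of 0.614. Mrpl39 in DC medium had replicate 4 at 7.34, against 7.09 to 7.19, with a ratio of 0.585. In fresh medium, replicate 1 was low for Mrps18a, at 6.83 against 7.21 to 7.44 (ratio 0.621), and for Mrps33, at 8.45 against 8.81 to 9.09 (ratio 0.573). Without DC replicate 4, the AML minus fresh difference of Mrpl39 was the same as with it, at -0.23 (adjusted p = 0.0440).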

How the results depend on the processing

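No named member's called difference changed sign under any alternative run. The count called lower in AML against fresh medium (1 as reported) was 2 with the replicate number as a random effect, after further quantile normalization and with a block that sets replicates 1 to 3 apart from 4 to 7. It was 0 after median centring, with array weights, with the 2 groups fitted alone, without AML replicates 4 and 5, and within replicates 1 to 3 or 4 to 7 alone. With the replicate block the count lower was 1, now Mrpl45 and not Mrpl39 (adjusted p = 0.0557), as it also was with trend and robust estimation (Mrpl39 adjusted p = 0.0681), and with the replicate block 1 member, Mrpl23, was called higher, against 0 as reported. The count called lower in AML against DC medium (0 as reported) was 4 with the replicate block, 3 with the block of replicates 1 to 3 against 4 to 7, 2 after quantile normalization and with array weights, and 1 with the random effect, with genes under the 25th percentile left out and with trend and robust estimation. The Mrpl median of AML minus DC was 0.046 within replicates 1 to 3 and -0.13 within replicates 4 to 7. With each array left out in turn, 0 to 2 members were called lower in AML against fresh medium, 0 to 3 lower and 0 to 1 higher in AML against DC medium, and 0 elsewhere. Same-numbered arrays of different media correlated by -0.109 to 0.364 in their deviations, and replicate 4 was the number that went below 0. The correlation fitted with the replicate number as a random effect was 0.0928. The labels do not give pairs, so the main fit took none, and these values do not decide whether the numbers are pairs. Of the 21 arrays, 7 correlated best with their own number among the arrays of the other media. The count that unrelated numbers would give was not computed. Apart from the divisions by replicate number, shares of all genes called under these alternatives were not counted. The member counts there cannot be read against a background. Why the counts moved was not tested.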
